A study of Saccharomyces cerevisiae with 10 samples.

Results

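The proteasome genes described here are 34 of the 6607 genes counted in the yeast *Saccharomyces cerevisiae*, chosen by name and not by any measured value. They are the 7 genes of the alpha ring and the 7 of the beta ring of the 20S core particle, 10 genes of the base and 8 of the lid of the 19S regulatory particle, BLM10, which encodes another cap of the core, and RPN4, which encodes their transcription factor. RNA was sequenced from 10 cultures in 3 groups. The first group had 3 cultures of 218-L-14-D1690 at stage 3, in which the only source of eRF3, the translation termination factor encoded by SUP35, was the nonsense allele sup35-218 on the plasmid pRSU1-218. The second had 4 cultures of L-14-D1690 at stage 3 with wild-type SUP35 on a plasmid with the LEU2 marker, after the URA3 plasmid had been lost on 5-FOA. The third had 3 cultures of the initial strain U-14-D1690 at stage 1, with wild-type SUP35 on a URA3 plasmid. The labels name pRSU2 for both SUP35 groups, whereas the study's methods give pRSU1 at stage 3. The labels also name SC medium for all cultures, where the methods give selective media. All 3 groups lacked the chromosomal SUP35 gene (SUP35::HIS3MX) and shared the nonsense alleles trp1-289(UAG) and ade1-14(UGA) and auxotrophic mutations in leu2, ura3 (ura3-52), lys2 and his3 (his3-d200). Each group is 1 strain, so a strain and its genotype cannot be told apart, and by the study's methods the marker, the plasmid shuffle and the selective medium also differ between stage 1 and stage 3.

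The proteasome degrades proteins that carry a chain of ubiquitin. The 19S base unfolds the substrate with a ring of ATPases, the lid removes the ubiquitin, and the 20S core cuts the chain inside a closed chamber. In yeast, Rpn4 binds a short promoter element called PACE (proteasome-associated control element) shared by most of these genes. Rpn4 is itself a very short-lived substrate of the proteasome, which gives a feedback loop between the amount of proteasome and the transcription of its genes. Levels of RPN4 mRNA measured here therefore do not give the level of the Rpn4 protein.

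The letters of this element, which most of the members share, are shown first. The 300 bases before the start codon were read from the RefSeq genome (R64, the build of the count table) and searched on both strands for GGTGGCAAA. A match was present before 27 of the 33 genes other than RPN4 (81.82%), against 78 of 6578 genes with such a window (1.186%). The shorter form GGTGGCAA, which the longer one contains, was present before the same number of these genes and before 1.596% of all windows. The matches lay 75 to 174 bases from the start codon. No match was found before PRE5, PUP1, RPN10, RPN13, RPN8, BLM10 or RPN4. The sites of 8 genes that carry the results below are given here, on the strand of the gene, with 10 bases on each side and the match in capitals:

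PRE2: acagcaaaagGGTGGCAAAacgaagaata

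PUP3: tggcactgccGGTGGCAAAaaagtgcaaa

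RPN2: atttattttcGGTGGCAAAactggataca

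PRE3: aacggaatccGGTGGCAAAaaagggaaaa

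RPN9: gctttcatccGGTGGCAAAagtaagaaca

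RPN6: tggttccaagGGTGGCAAAtgttggtaga

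RPT1: attaccgaatTTTGCCACCcgaaaactaa

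PRE4: tggtttagaaTTTGCCACCttaaatacgt

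The capitals lie at chrXVI:732194-732202 (PRE2), chrV:349521-349529 (PUP3), chrIX:220811-220819 (RPN2), chrX:435045-435053 (PRE3), chrIV:1322096-1322104 (RPN9), chrIV:286800-286808 (RPN6), chrXI:174058-174066 (RPT1) and chrVI:249969-249977 (PRE4). In RPT1 and PRE4 the element is on the strand opposite to the gene, so the reverse complement is read. A match is a description of the letters and not evidence of binding.

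**Figure D1:**
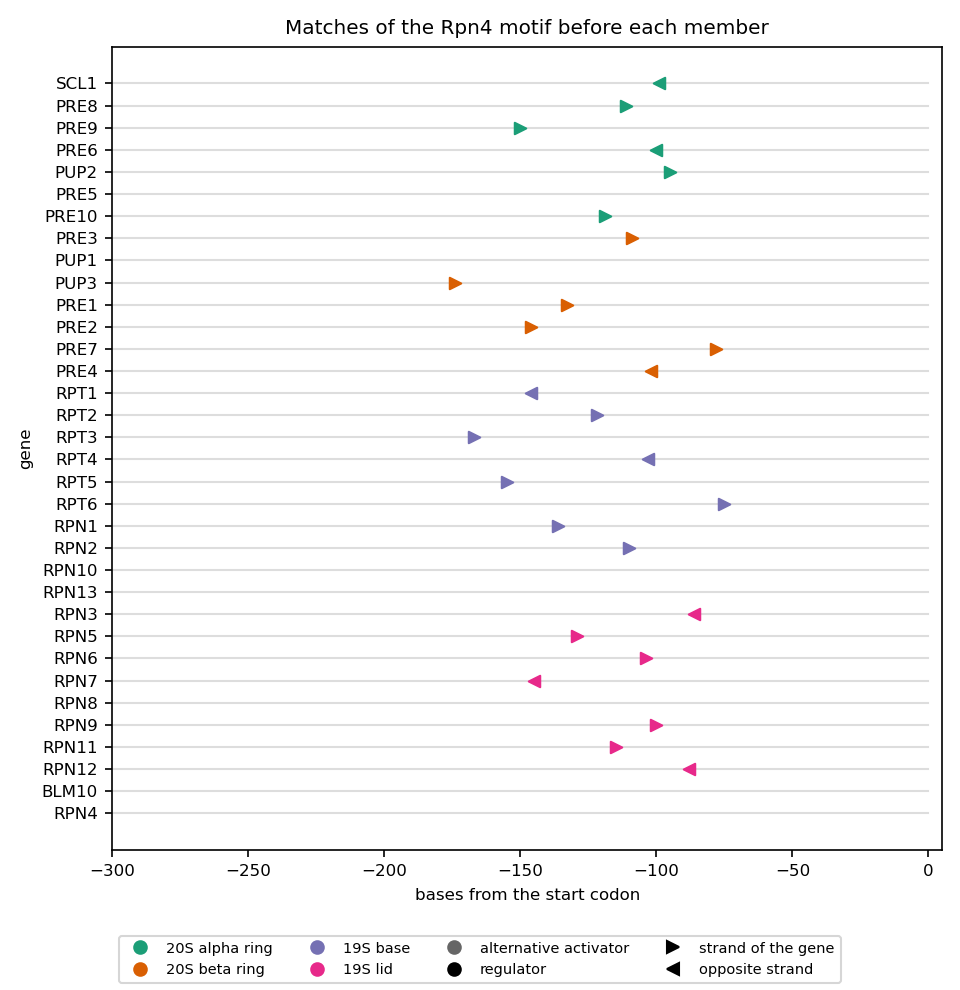
Position of each GGTGGCAAA match in the 300 bases before the start codon of the 34 genes (x axis, bases from the start codon; 1 row per gene), coloured by subcomplex, with the arrowhead pointing right for the strand of the gene and left for the opposite strand. The 27 matches sit between 75 and 174 bases before the start codon, and 7 rows, RPN4 among them, have none.

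The libraries had 3044096 to 4861009 counts each (median 3516164.5), and the 34 genes had at least 322 counts in every library. All 34 passed the filter on low counts, with which 5856 genes were tested. Values are normalized CPM (the count scaled to library size with TMM factors) and, where genes are compared with one another, RPKM, the same value per kilobase of gene. The counted SUP35 mRNA was higher in sup35-218 stage 3 than in SUP35 stage 3 cultures (log2FC 1.72), and URA3 mRNA was at 59.2 to 94.4 normalized CPM in the 7 stage 3 cultures, against 829.3 to 1091.4 in the 3 stage 1 cultures. The labels give MATa, and the transcripts went against it: the 4 alpha-cell markers (MF(ALPHA)1, MF(ALPHA)2, STE3 and SAG1) all had counts in every group and summed to 1288 to 1817 RPKM in sup35-218 stage 3, 2021 to 2403 in SUP35 stage 3 and 1937 to 2379 in SUP35 stage 1 cultures. The 4 a-cell markers (MFA1, MFA2, STE2 and BAR1) summed to 66.6 to 98.9, 102.8 to 437.9 and 543.0 to 1331 RPKM in the same order of groups, and none of them was at 0 in any group. The a-cell sums rose from group to group in that order. The alpha-cell sums were lowest in sup35-218 stage 3 and overlapped between the 2 SUP35 groups. The part of both lists in the results below was not tested. A bulk culture also cannot tell fewer cells of a kind from less RNA per cell.

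RPN4 (YDL020C, chrIV:415113-416708, minus strand) was highest in sup35-218 stage 3 and lowest in stage 1 cultures. It had 450.7, 468.0 and 619.2 normalized CPM in the sup35-218 stage 3 cultures, 447.8, 359.9, 441.8 and 337.9 in the SUP35 stage 3 cultures, and 297.6, 318.7 and 247.5 in the SUP35 stage 1 cultures. No 2 groups overlapped, which was also so for PRE3 and BLM10 among the 34, although the lowest sup35-218 culture lay just above the highest SUP35 stage 3 culture. The means were 512.6 ± 92.7 (SD, n = 3), 396.8 ± 56.2 (n = 4) and 287.9 ± 36.6 (n = 3) normalized CPM in that order. Of all tested genes, 20.9% were higher and 22.8% lower without overlap in sup35-218 than in SUP35 stage 3. Against SUP35 stage 1, these shares were 28.4% and 28.1% for sup35-218 and 15.5% and 17.5% for SUP35 stage 3. The share of all genes without overlap in all 3 comparisons was not counted.

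Relative to stage 1, RPN4 rose 1.78-fold in sup35-218 stage 3 cells (log2FC 0.83, SE 0.16, edgeR quasi-likelihood test with Benjamini-Hochberg adjustment, adjusted p = 0.000747). It rose 1.38-fold in SUP35 stage 3 cells over the same stage 1 cultures (log2FC 0.46, SE 0.15, edgeR adjusted p = 0.0335). This smaller rise missed the threshold of 0.05 when any 1 of 5 cultures was left out (highest adjusted p = 0.108): SUP35 stage 3 replicate 1 or 3, or any of the 3 stage 1 cultures. Between the 2 stage 3 groups the difference did not pass the test (log2FC 0.37, SE 0.14, edgeR adjusted p = 0.0553), and it passed with DESeq2 (adjusted p = 0.0439) and with upper quartile scaling (edgeR adjusted p = 0.0369). It also passed without sup35-218 replicate 1 or 2, SUP35 stage 3 replicate 1 or SUP35 stage 1 replicate 3 (lowest edgeR adjusted p = 0.0255). Its size went down to 0.24 without sup35-218 replicate 3, the culture with the highest RPN4, and up to 0.50 without sup35-218 replicate 1.

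RPN4 lies on chromosome IV, as does SUP35. The median log2FC of all 755 tested genes of that chromosome was -0.01 in sup35-218 stage 3 against SUP35 stage 3, and 0.03 against SUP35 stage 1.

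The 600 bases before the RPN4 start codon, a window chosen after the data had been examined, hold letters known as binding sites of Pdr1 and Pdr3, the regulators of multidrug resistance, and of Yap1, the regulator of the oxidative stress response. These factors, and the heat shock factor Hsf1, are known activators of RPN4 in yeast. They are shown on the strand of the gene, with the searched letters in capitals:

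RPN4, Pdr site far: aataacaagtTCCGTGGAactcaaagaa

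RPN4, Pdr site near: tacgaaccttTCCACGGAtaatcacgtg

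RPN4, Yap1 site: gtgatcgctaTTACTAAtagccgttta

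The letters TCCGTGGA occur at chrIV:417143-417150 and, on the opposite strand, at chrIV:417100-417107, 434 and 391 bases before the start codon. The same letters occur in 1.233% of 6571 windows of that length. TTACTAA occurs once, 367 bases before the start codon, at chrIV:417076-417082, and in 12.81% of windows. TCCGCGGA, another form of the Pdr site, does not occur in this window.

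The transcripts of these activators did not share the order of RPN4. Their mRNA does not give the activity of the proteins, and their part in the level of RPN4 was not tested. PDR3 had 103.1, 125.4 and 117.4 normalized CPM in sup35-218 stage 3, 159.4, 131.9, 165.7 and 132.9 in SUP35 stage 3, and 209.9, 236.3 and 199.6 in SUP35 stage 1 cultures, the reverse of the order of RPN4 and with no overlap between any 2 groups. It fell in all 3 comparisons (log2FC -0.36, edgeR adjusted p = 0.025 between the stage 3 groups; -0.90 and -0.55 against stage 1 for sup35-218 and SUP35 stage 3, edgeR adjusted p = 5.34e-05 and 0.00366). HSF1 fell against stage 1 in sup35-218 and in SUP35 stage 3 cells (log2FC -0.83 and -0.68, edgeR adjusted p = 0.000173 and 0.00126), as did YAP1 (-0.55 and -0.34, edgeR adjusted p = 0.000526 and 0.0148). Like PDR3, YAP1 had the reverse of the order of RPN4 with no overlap between any 2 groups. The share of all genes with that pattern was not counted. Between the stage 3 groups, 22.8% of all genes were lower and 20.9% higher without overlap. PDR1 was higher in sup35-218 than in SUP35 stage 3 cells (log2FC 0.47, edgeR adjusted p = 0.00435). The factors that mark the Rpn4 protein for degradation were also measured. The ubiquitin-conjugating enzyme gene RAD6 had a log2FC of 0.62 in sup35-218 stage 3 against SUP35 stage 3 (edgeR adjusted p = 0.000278), and MUB1, which encodes the partner of the ligase Ubr2, had one of 0.43 (edgeR adjusted p = 0.0123). The ligase gene UBR2 did not pass the test in any of the 3 comparisons (adjusted p from 0.344 to 0.939). Of these 7 regulators, 3 rose and 1 fell between the stage 3 groups, 1 rose and 3 fell in sup35-218 stage 3 against SUP35 stage 1, and 0 rose and 3 fell in SUP35 stage 3 against stage 1. Over all tested genes 18.5% rose and 20.7% fell in the first of these comparisons, 22.9% and 23.3% in the second, and 12.7% and 12.8% in the third.

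**Figure D2:**
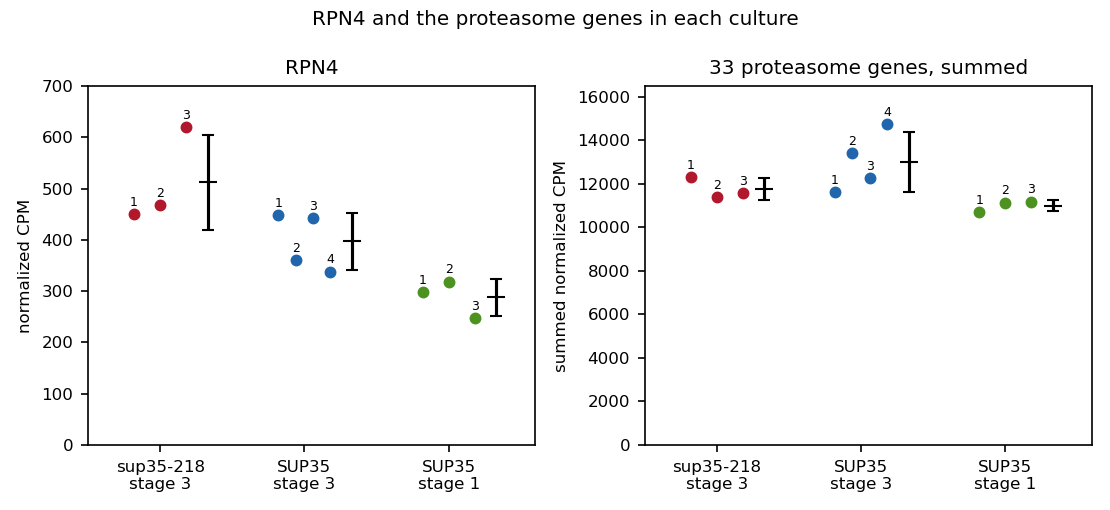
Normalized CPM of RPN4 (left) and the summed normalized CPM of the 33 other genes (right) in each culture, numbered by replicate, in sup35-218 stage 3, SUP35 stage 3 and SUP35 stage 1; the black marks give the mean and SD of each group. RPN4 is highest in sup35-218 stage 3 (450.7 to 619.2), whereas the sum of the other genes is highest in SUP35 stage 3 replicate 4 (14747).

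The sum of the proteasome genes did not follow the order of RPN4, although some single genes, such as PUP2 and RPN6, had group means in that order. Together the 33 genes had 12321, 11397 and 11575 summed normalized CPM in sup35-218 stage 3, 11633, 13426, 12254 and 14747 in SUP35 stage 3, and 10698, 11131 and 11179 in SUP35 stage 1. The stage 1 cultures lay below all 7 stage 3 cultures, and the 2 stage 3 groups overlapped. This sum was 1.18 ± 0.0587% of all counts in sup35-218 stage 3 (SD, n = 3), 1.30 ± 0.135% in SUP35 stage 3 (n = 4) and 1.10 ± 0.0333% in SUP35 stage 1 (n = 3).

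In sup35-218 stage 3 against SUP35 stage 3, the comparison within 1 stage, the 33 genes had a median log2FC of -0.07, beside -0.01 over all genes tested. Of the 33, 13 were above 0 and 20 below, and the SD of their log2FC was 0.24, beside 0.53 over all genes. The genes tested include ones with far fewer counts than the members, and the spreads were not compared at like counts. The median was -0.07 in the alpha ring, -0.08 in the beta ring, -0.09 in the base and 0.10 in the lid. Of all 34 genes 2 rose (PRE4 and RPN9) and 5 fell (PRE3, RPT1, RPN2, RPN13 and BLM10), whereas 18.5% of all tested genes rose and 20.7% fell. Both shares of the members are below those backgrounds. The number that fell was 3 without any 1 of the sup35-218 cultures, and the number that rose was 1 without sup35-218 replicate 3, SUP35 stage 3 replicate 3 or SUP35 stage 1 replicate 2. With the study's further limit of a log2FC above 0.5 in size, which defines a DEG, 0 rose and 2 fell (RPN2 and BLM10), against 10.7% and 12.6% of all genes. Every sup35-218 culture lay above every SUP35 stage 3 culture for 4 genes and below for 7, and this was so for 20.9% and 22.8% of all genes.

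BLM10 (YFL007W, chrVI:123479-129910), which encodes the large activator that caps the core in place of the 19S particle, had the largest log2FC in size of the 34 in this comparison. It had 266.5, 308.7 and 298.5 normalized CPM in sup35-218 stage 3, against 456.0, 481.8, 489.5 and 462.8 in SUP35 stage 3 and 381.4, 426.3 and 405.3 in SUP35 stage 1. The sup35-218 cultures lay below all cultures of both other groups. BLM10 fell to 0.62 of the SUP35 stage 3 level (log2FC -0.70, SE 0.10, edgeR adjusted p = 0.000127) and to 0.72 of the stage 1 level (log2FC -0.47, SE 0.10, edgeR adjusted p = 0.00203). Between the SUP35 groups it did not pass the test (log2FC 0.22, SE 0.10, edgeR adjusted p = 0.0989). BLM10 is 1 of the genes with no PACE match.

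RPN2 (YIL075C), the large scaffold subunit of the base, had 1127, 1028 and 1094 normalized CPM in sup35-218 stage 3, against 1384, 1697, 1580 and 1856 in SUP35 stage 3. The groups did not overlap, and RPN2 fell to 0.665 of the SUP35 level (log2FC -0.59, SE 0.13, edgeR adjusted p = 0.00284). Its stage 1 cultures were at 1069.5, 1149.5 and 1304.3, close to the sup35-218 cultures (log2FC -0.12, SE 0.14, edgeR adjusted p = 0.508). The SUP35 stage 3 cultures were the ones that stood above both other groups.

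PRE3 (YJL001W), which encodes the catalytic beta subunit with caspase-like activity, fell as well. It had 251.3, 248.7 and 223.0 normalized CPM in sup35-218 stage 3, against 289.5, 318.3, 278.3 and 364.7 in SUP35 stage 3 (log2FC -0.38, SE 0.11, edgeR adjusted p = 0.0126). RPN13 (YLR421C), a ubiquitin receptor of the base, fell by the same amount (log2FC -0.38, SE 0.11, edgeR adjusted p = 0.0136). RPT1 (YKL145W), 1 of the ATPases, had a log2FC of -0.37 (SE 0.12, edgeR adjusted p = 0.032), but this call was kept in only 9 of 16 alternative settings. It was lost without any 1 of the sup35-218 cultures, without SUP35 stage 3 replicate 2 or 4, in a fit of only these 2 groups and with the replicate block. The call of PRE3 was lost without sup35-218 replicate 3, and that of RPN13 without sup35-218 replicate 1 or 2.

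The other catalytic subunits did not pass the test. PUP1 (YOR157C), with trypsin-like activity, had 216.3, 209.1 and 188.2 normalized CPM in sup35-218 stage 3, 183.6, 227.7, 199.4 and 245.9 in SUP35 stage 3, and 200.8, 184.9 and 197.0 in SUP35 stage 1, and its groups overlapped throughout. PRE2 (YPR103W), with chymotrypsin-like activity, differed only from stage 1, as given below. Between the stage 3 groups PRE2 had a log2FC of -0.16 and PUP1 one of -0.07 (edgeR adjusted p = 0.33 and 0.663), and the difference of either from PRE3 was not tested.

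RPN9 (YDR427W), a scaffold subunit of the lid, went the other way. It had 143.1, 143.7 and 163.8 normalized CPM in sup35-218 stage 3, against 103.8, 101.4, 136.5 and 121.6 in SUP35 stage 3, with no overlap (log2FC 0.38, SE 0.12, edgeR adjusted p = 0.0266). Its stage 1 cultures, at 163.3, 165.3 and 131.5, spanned the sup35-218 range. PRE4 (YFR050C), a beta subunit without a catalytic site, had 298.6, 256.9 and 262.4 normalized CPM in sup35-218 stage 3, against 220.2, 234.3, 224.3 and 235.8 in SUP35 stage 3 (log2FC 0.25, SE 0.09, edgeR adjusted p = 0.0334). The call of RPN9 was lost without sup35-218 replicate 3, and that of PRE4 without sup35-218 replicate 1, SUP35 stage 3 replicate 3 or SUP35 stage 1 replicate 2.

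**Figure D3:**
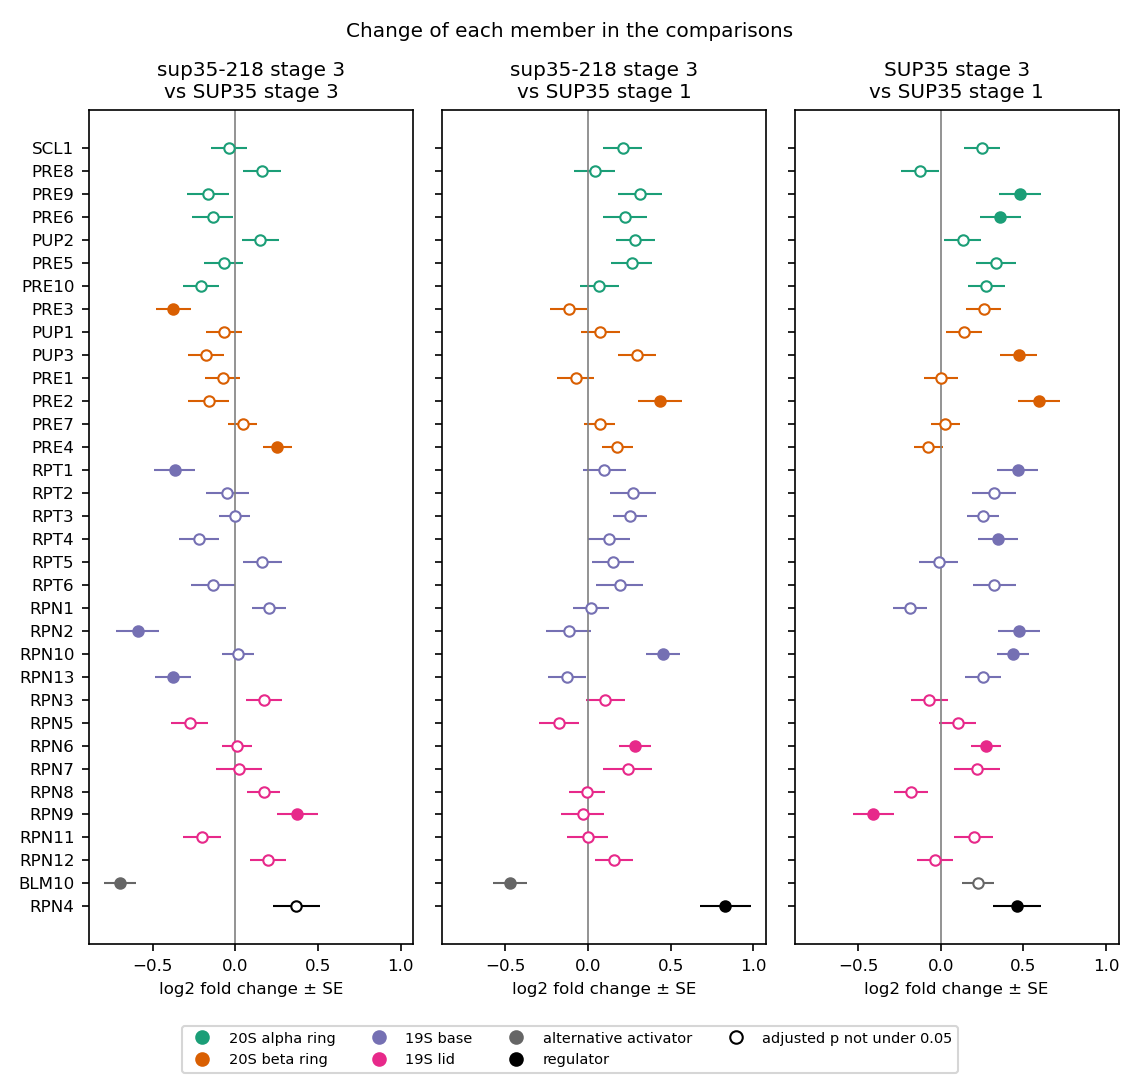
log2 fold change (x axis, ± SE) of the 34 genes (rows) in sup35-218 stage 3 against SUP35 stage 3, in sup35-218 stage 3 against SUP35 stage 1, and in SUP35 stage 3 against SUP35 stage 1, coloured by subcomplex; filled points had an adjusted p under 0.05. Most points lie within 0.5 of 0, BLM10 is lowest in the first 2 panels (-0.70 and -0.47), and RPN4 is highest in the second (0.83).

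Against the initial strain, most estimates for sup35-218 stage 3 cells were above 0 and few passed the test. The median log2FC of the 33 genes was 0.13, beside 0.04 over all genes tested, with 24 of 33 above 0. The alpha ring had the highest median (0.22), with all 7 genes above 0, and the lid one of 0.05 with 4 of 8 above 0. Of all 34 genes 4 rose (PRE2, RPN10, RPN6 and RPN4) and 1 fell (BLM10), against 22.9% and 23.3% of all genes, so that the shares of called members were below the background in both directions. The number that rose was 2 without stage 1 replicate 1 or 2, which ended the calls of PRE2 and RPN6. It was 10 without SUP35 stage 3 replicate 1, a culture outside this comparison that shares its fit. Genes called in either direction numbered 2188 without stage 1 replicate 2 and 2899 without SUP35 stage 3 replicate 1, beside 2709 with all 10. At the DEG limit 1 rose (RPN4) and 0 fell, against 14.7% and 16.5% of all genes. By contrast, every sup35-218 culture was above every stage 1 culture for 15 of the 34 and below for 2, beside 28.4% and 28.1% of all genes. The 33 log2FC values had an SD of 0.19, beside 0.65 over all genes, again not compared at like counts, and all 33 were below 0.5 in size. After BLM10, the lowest were RPN5, a scaffold of the lid, at -0.17 (edgeR adjusted p = 0.257) and RPN13 at -0.12 (edgeR adjusted p = 0.4).

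In SUP35 stage 3 against stage 1 cells, most estimates were also above 0, and 10 of the 34 genes rose. The median log2FC of the 33 was 0.25, a 1.19-fold difference, beside 0.00 over all genes tested, with 25 of 33 above 0. The base (0.32) and the alpha ring (0.28) had the highest medians, the beta ring had 0.14 and the lid 0.03. Those that rose were PRE9, PRE6, PUP3, PRE2, RPT1, RPT4, RPN2, RPN10, RPN6 and RPN4, and 1 fell (RPN9), beside 12.7% and 12.8% of all genes. In the fit of all 10 cultures with TMM, only this comparison had a share of members that rose above the background. The number that rose was 3 without stage 1 replicate 2 and 4 without stage 1 replicate 1, and it was 15 without SUP35 stage 3 replicate 1. Genes called in either direction numbered 842 without stage 1 replicate 2 and 1603 without SUP35 stage 3 replicate 1, beside 1489 in that fit. The share of all genes that rose was not counted with cultures left out, so this contrast is given for that fit only. At the DEG limit 1 rose (PRE2) and 0 fell, against 7.21% and 6.63% of all genes. All cultures of SUP35 stage 3 were above all of stage 1 for 15 of the 34 and below for 1 (RPN1), beside 15.5% and 17.5% of all genes.

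PRE2 (YPR103W, chrXVI:732349-733212) had the largest rise of the subunits in SUP35 stage 3 over stage 1. It had 459.7, 394.7 and 422.7 normalized CPM in sup35-218 stage 3 and 461.2, 553.9, 382.7 and 504.6 in SUP35 stage 3, against 297.9, 311.1 and 335.3 in SUP35 stage 1. All 7 stage 3 cultures were above the 3 stage 1 cultures. The rise was 1.51-fold in SUP35 stage 3 (log2FC 0.60, SE 0.13, edgeR adjusted p = 0.00429) and 1.35-fold in sup35-218 stage 3 (log2FC 0.44, SE 0.13, edgeR adjusted p = 0.0159).

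RPN10 (YHR200W), a ubiquitin receptor between the base and the lid, had 261.7, 257.2 and 244.1 normalized CPM in sup35-218 stage 3 and 257.6, 273.6, 235.2 and 239.2 in SUP35 stage 3, against 176.3, 173.9 and 206.7 in SUP35 stage 1. It rose 1.37-fold in sup35-218 stage 3 (log2FC 0.46, SE 0.10, edgeR adjusted p = 0.00275) and 1.36-fold in SUP35 stage 3 (log2FC 0.44, SE 0.10, edgeR adjusted p = 0.00556). RPN10 has no PACE match, yet its rise was among the 2 largest of the subunits in sup35-218 stage 3 against stage 1. RPN6 (YDL097C), which clamps the lid to the core, rose in both comparisons with stage 1 (log2FC 0.29 in sup35-218 and 0.27 in SUP35 stage 3, edgeR adjusted p = 0.0266 and 0.0403), and its calls were lost without any 1 of the stage 1 cultures. The call in SUP35 stage 3 was also lost without SUP35 stage 3 replicate 2, 3 or 4, and was kept in 8 of 16 alternative settings.

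The remaining calls against stage 1 were made in SUP35 stage 3. Against the same stage 1 cultures, sup35-218 stage 3 cells had for PUP3 a log2FC of 0.30 (edgeR adjusted p = 0.0506) and for PRE9 one of 0.31 (edgeR adjusted p = 0.0707), and these passed the threshold in 11 and 6 of 16 alternative settings. In SUP35 stage 3 against stage 1 the values were as follows. PRE9 (YGR135W), an alpha subunit of the gate of the core, had a log2FC of 0.48 (SE 0.13, edgeR adjusted p = 0.0144), and PUP3 (YER094C), a beta subunit without a catalytic site, had 0.47 (SE 0.11, edgeR adjusted p = 0.00735). RPN2 had 0.47 (edgeR adjusted p = 0.0166) and RPT1 had 0.46 (edgeR adjusted p = 0.0159). PRE6 (YOL038W) of the alpha ring had 0.36 and RPT4 (YOR259C) of the ATPase ring had 0.35 (edgeR adjusted p = 0.049 and 0.0491), and each of these calls was kept in only 5 of 16 settings. Both were lost without sup35-218 replicate 1 or 2, SUP35 stage 3 replicate 2 or 4, or any 1 of the stage 1 cultures, and that of RPT4 also without SUP35 stage 3 replicate 3. RPN9 fell (log2FC -0.41, SE 0.12, edgeR adjusted p = 0.027). The calls of RPN2 and RPT1 were lost without stage 1 replicate 1 or 2, that of PRE9 without stage 1 replicate 2, and that of RPN9 without replicate 1 or 2 of either group. RPN1 (YHR027C), the other scaffold of the base, did not pass the test although its groups did not overlap (log2FC -0.18, SE 0.10, edgeR adjusted p = 0.197). RPN8, a lid subunit paired with RPN11, was at -0.18 too (edgeR adjusted p = 0.219). For RPN2, RPT1 and RPN9 the 3 log2FC values stand side by side as follows, with the SUP35 stage 3 cultures shared by the first and the third. RPN2 had -0.59 in sup35-218 against SUP35 stage 3, -0.12 in sup35-218 stage 3 against stage 1, and 0.47 in SUP35 stage 3 against stage 1. RPT1 had -0.37, 0.10 and 0.46, and RPN9 had 0.38, -0.03 and -0.41 in that order.

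**Figure D4:**
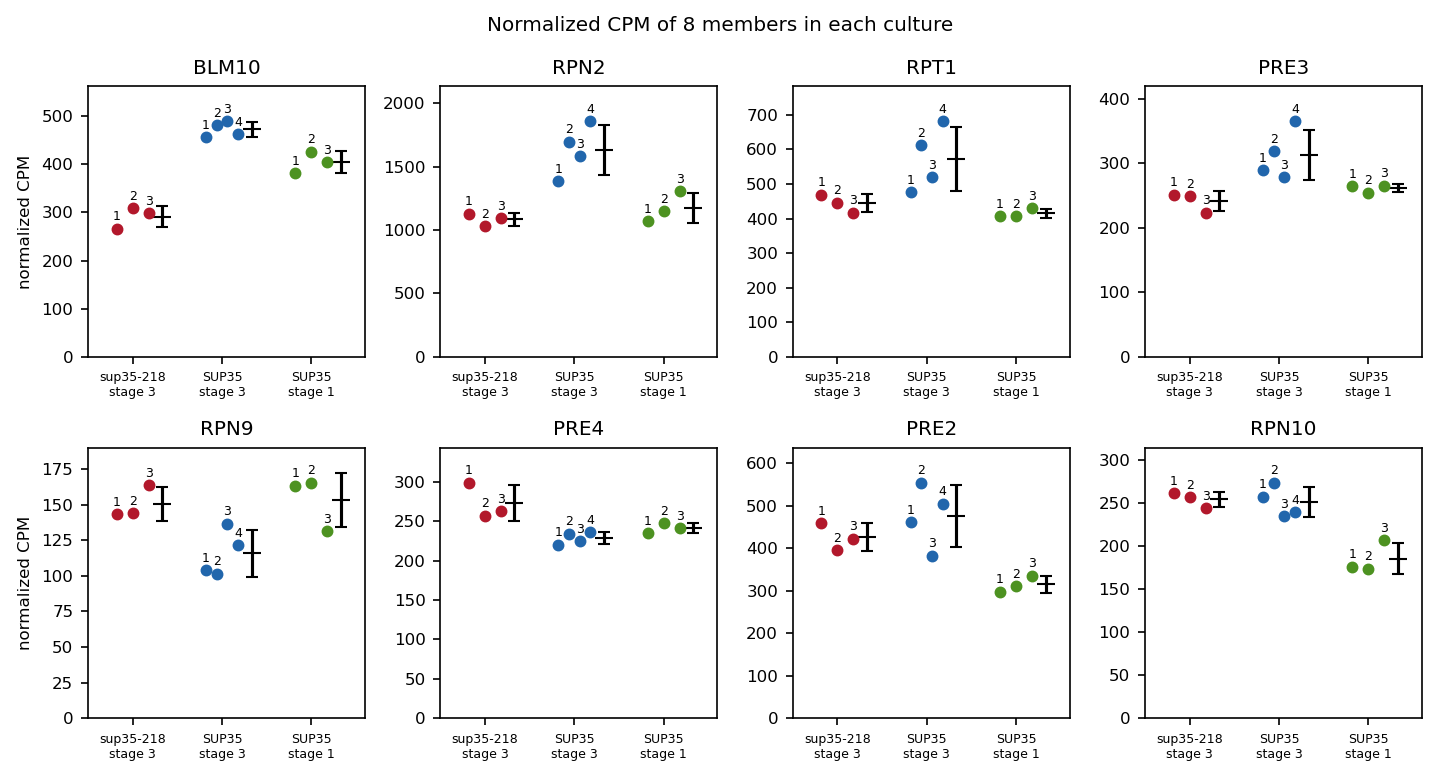
Normalized CPM of 8 genes in each culture (points, numbered by replicate), with the group mean and SD (black), in sup35-218 stage 3, SUP35 stage 3 and SUP35 stage 1. BLM10 is lowest in sup35-218 stage 3 (266.5 to 308.7), RPN2 is highest in SUP35 stage 3 (1384 to 1856), and PRE2 and RPN10 are lowest in SUP35 stage 1 (297.9 to 335.3 and 173.9 to 206.7).

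In total 15 of the 34 genes passed the test in at least 1 comparison and 19 in none, which does not show that the 19 were unchanged. Some of the 19 passed in alternative settings. The most were 6 of 16, for RPT3 and for PUP2 in sup35-218 stage 3 against stage 1. The 19 were SCL1 (YGL011C), PRE8 (YML092C), PUP2 (YGR253C), PRE5 (YMR314W) and PRE10 (YOR362C) of the alpha ring, PUP1, PRE1 (YER012W) and PRE7 (YBL041W) of the beta ring, the ATPase genes RPT2 (YDL007W), RPT3 (YDR394W), RPT5 (YOR117W) and RPT6 (YGL048C), RPN1 of the base, and RPN3 (YER021W), RPN5 (YDL147W), RPN7 (YPR108W), RPN8 (YOR261C), RPN11 (YFR004W) and RPN12 (YFR052W) of the lid. RPN11 encodes the enzyme that removes ubiquitin chains, and it had 275.2, 257.5 and 278.2 normalized CPM in sup35-218 stage 3 and 279.7, 291.3, 287.2 and 385.5 in SUP35 stage 3, against 268.9, 261.1 and 282.8 in SUP35 stage 1. The standard errors of the 34 log2FC values lay between 0.0874 and 0.144 for the comparison of the stage 3 groups.

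Among cultures of the same strain, most of the 33 genes often moved to the same side. Each gene was centred on its group mean on the log2 scale. In SUP35 stage 3 replicate 4, 30 of the 33 genes lay above their group mean, with a median deviation of 0.20, and in replicate 1 only 2 of 33 did, with a median of -0.14. In replicates 2 and 3 of that group, 24 and 5 of the 33 were above. Over all genes tested, between 49.1% and 52.1% were above the group mean in these 4 cultures. The scaling and centring keep this share near an even split, so it does not show how often another set of genes moves together. Deviations from a group mean also balance out within the group, so the counts of its cultures are not independent. In sup35-218 stage 3 replicate 1, 30 of the 33 were above, and in its replicates 2 and 3, 9 and 12 were. The SUP35 stage 1 cultures were closer together, with 11, 21 and 21 of 33 above.

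RPN4 did not share these deviations. In 8 of the 10 cultures RPN4 and the median of the 33 genes lay on opposite sides of their group means, the exceptions being replicate 2 of sup35-218 stage 3 and replicate 2 of SUP35 stage 1. In SUP35 stage 3 the order of the 4 cultures by RPN4 (447.8, 441.8, 359.9 and 337.9 normalized CPM in replicates 1, 3, 2 and 4) was the exact reverse of the order by the summed subunits (11633, 12254, 13426 and 14747). This is a description of 10 libraries in which both values share the library, and no test was made. Deviations balance out within each group, so the 10 cultures are not independent of one another. How often other genes lay opposite to the median of the 33 was not counted.

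**Figure D5:**
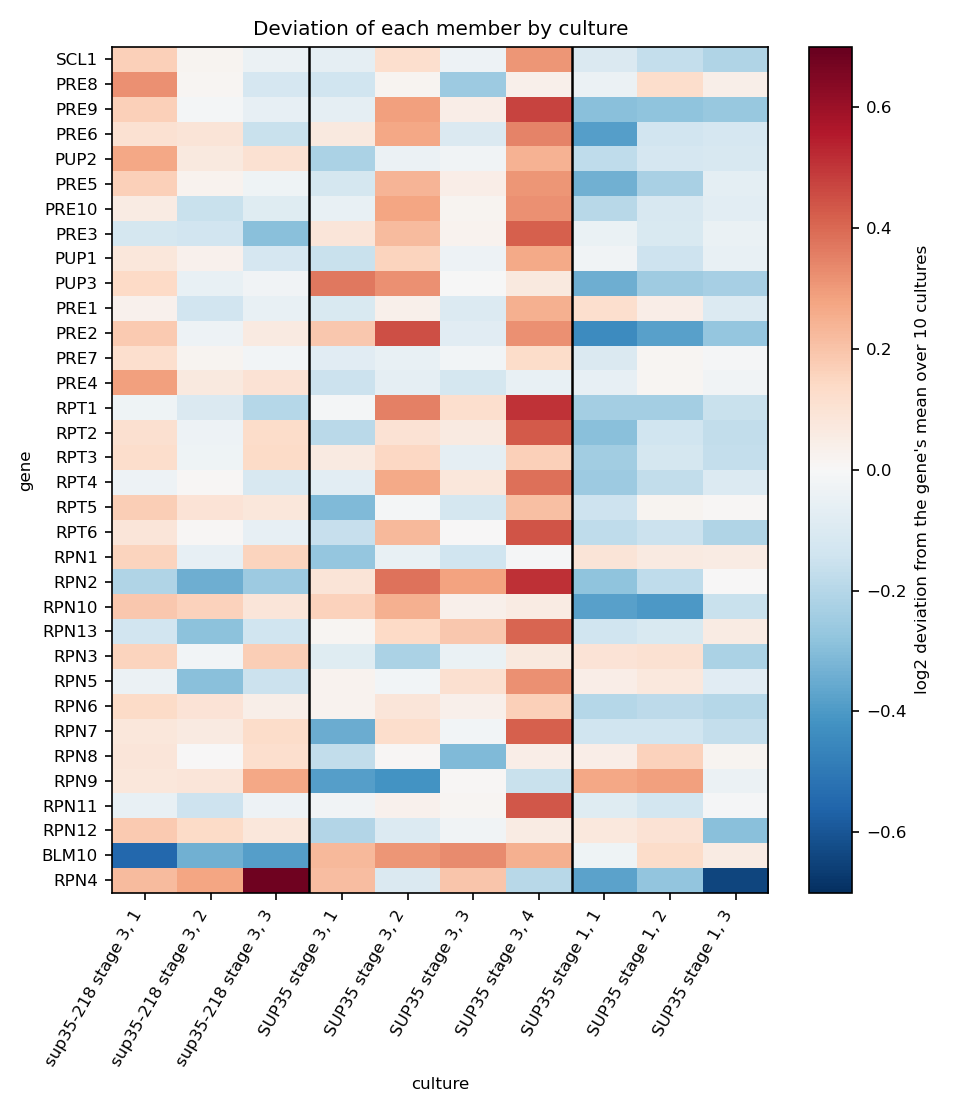
log2 deviation of each of the 34 genes (rows) from its own mean over the 10 cultures (columns, grouped as sup35-218 stage 3, SUP35 stage 3 and SUP35 stage 1), red above and blue below. SUP35 stage 3 replicate 4 is red in 30 of the 33 rows other than RPN4, stage 1 replicates 1 and 3 are blue in 26 each, and the RPN4 row is lowest in stage 1 and highest in sup35-218 stage 3 replicate 3 (0.68).

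Levels per length were compared across the subunits. In sup35-218 stage 3 the median of the 33 was 340.4 RPKM, in SUP35 stage 3 it was 355.8 and in SUP35 stage 1 it was 308.3. RPN13 was highest in each group (564.2 ± 32.9, 734.0 ± 85.6 and 615.4 ± 45.9 RPKM, SD, n = 3, 4 and 3 in that order) and BLM10 lowest (45.3 ± 3.4, 73.5 ± 2.4 and 62.9 ± 3.5 RPKM). The alpha ring spanned 247.9 RPKM (PRE8) to 503.0 (PRE9) in sup35-218 stage 3, and the beta ring 260.2 (PUP1) to 492.7 (PRE2). The base spanned 160.7 RPKM (RPN1) to 564.2 (RPN13), and the lid 127.1 (RPN9) to 367.5 (RPN5). RPN1, which is present once per particle like RPN2, was at 160.7 RPKM in sup35-218 stage 3, 139.7 in SUP35 stage 3 and 158.8 in SUP35 stage 1, where RPN2 was at 382, 574 and 414. RPN4 was at 321.2 ± 58.1, 248.7 ± 35.2 and 180.4 ± 22.9 RPKM in that order of groups. Averaged over the groups it ranked 26 of the 34, between PUP1 and PRE8.

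The change was also read apart for genes with and without the PACE letters. In sup35-218 stage 3 against SUP35 stage 3 the median log2FC was -0.05 in the 27 genes with a match and -0.07 in the 6 without. In sup35-218 stage 3 against stage 1 it was 0.15 and 0.03, and in SUP35 stage 3 against stage 1 it was 0.25 and 0.24. Outside the 34, 46 tested genes had the letters in their window, a list made after the data had been examined, and 8 of them share the site of a proteasome gene on the other side. Of the 46, 28.3% rose and 15.2% fell in sup35-218 against SUP35 stage 3, beside 18.5% and 20.7% of all genes. Among them 23.9% rose and 13% fell in sup35-218 stage 3 against stage 1, beside 22.9% and 23.3%, and in SUP35 stage 3 against stage 1, 8.7% rose and 13% fell, beside 12.7% and 12.8%.

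Genes that work beside the proteasome were examined as lists. Of 13 assembly chaperones and associated factors, 1 rose and 3 fell in sup35-218 against SUP35 stage 3, where 18.5% and 20.7% of all genes did. NAS2, a chaperone of the base, had 54.3 ± 11.7 normalized CPM in sup35-218 stage 3 (SD, n = 3), against 32.2 ± 1.7 in SUP35 stage 3 (n = 4), and did not overlap (log2FC 0.75, edgeR adjusted p = 0.00165). It also rose against stage 1 (log2FC 0.71, edgeR adjusted p = 0.00289). IRC25 and ADD66, which encode chaperones of the alpha ring, fell against SUP35 stage 3 (log2FC -0.50 and -0.39, edgeR adjusted p = 0.00483 and 0.0284), as did TMA17, an assembly chaperone of the base (-0.41, edgeR adjusted p = 0.0321). Against stage 1, 2 rose and 2 fell in sup35-218 cells (22.9% and 23.3% of all genes), and 3 rose and 0 fell in SUP35 stage 3 cells (12.7% and 12.8% of all genes). UMP1, which guides maturation of the core, was among those that rose in both (log2FC 0.37 and 0.36, edgeR adjusted p = 0.0146 and 0.0216). ADD66 and ECM29 fell in sup35-218 stage 3 against stage 1 (log2FC -0.37 and -0.40, edgeR adjusted p = 0.04 and 0.0404). IRC25 and RPN14 rose in SUP35 stage 3 against stage 1 (log2FC 0.36 and 0.34, edgeR adjusted p = 0.0376 and 0.0441).

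Of 16 genes of ubiquitin, Cdc48 and the shuttle factors, 2 rose and 3 fell in sup35-218 against SUP35 stage 3 (18.5% and 20.7% of all genes). Of the 16, 4 rose and 3 fell in sup35-218 stage 3 against stage 1 (22.9% and 23.3% of all genes), and in SUP35 stage 3 against stage 1, 1 rose and 2 fell (12.7% and 12.8%). UBI4, the polyubiquitin gene, had 1383, 1417 and 1648 normalized CPM in sup35-218 stage 3, against 1250, 1128, 1223 and 1017 in SUP35 stage 3 and 1183.5, 1256.1 and 1025 in SUP35 stage 1. It rose over both (log2FC 0.36 each, edgeR adjusted p = 0.0338 and 0.0406). The ligase gene UFD4 rose over both as well (log2FC 0.37 and 0.33, edgeR adjusted p = 0.00998 and 0.0219), and UBR1, the ligase gene of the N-degron pathway, fell against both (-0.27 and -0.34, edgeR adjusted p = 0.0418 and 0.0154). UBC4, which encodes a ubiquitin-conjugating enzyme, and DSK2, which encodes a shuttle factor, rose in sup35-218 stage 3 against stage 1 (log2FC 0.48 and 0.51, edgeR adjusted p = 0.00256 and 0.00348). HUL5, the gene of a ligase bound to the proteasome, fell against stage 1 in sup35-218 and in SUP35 stage 3 cells (log2FC -0.74 and -0.52, edgeR adjusted p = 0.00028 and 0.00474). CDC48, the segregase that passes substrates on, rose in SUP35 stage 3 against stage 1 (log2FC 0.41, edgeR adjusted p = 0.0226). In that comparison UBA1 fell (log2FC -0.37, edgeR adjusted p = 0.0177). UBC5 fell in sup35-218 against SUP35 stage 3 (log2FC -0.37, edgeR adjusted p = 0.016), as did DOA1. UFD2 fell in sup35-218 stage 3 against stage 1.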

How the data were processed

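RNA-seq libraries of 10 yeast cultures were grouped by the strain name in each label. The libraries were directional and paired-end. Per the labels and the study's methods, the authors trimmed reads with Trimmomatic, aligned them with HISAT2 to the S288C genome (R64) and counted them with featureCounts. Whether counting used the strand is not given in the sources used here. The deposited values are raw counts per gene, without normalization. Of the 6607 genes, 5924 matched RefSeq R64 by systematic name, 99.58% of them with the same coordinates. Only RPT1 of the 34 members overlaps another gene, and that gene has no counts.

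Counts were filtered with filterByExpr (minimum count 10, 5856 genes kept), scaled by TMM and tested with edgeR 4.0.16 (quasi-likelihood F-test, all 3 groups in 1 model, R 4.3.3). The p-values were adjusted over all tested genes (Benjamini-Hochberg). A gene rose or fell where the adjusted p was under 0.05, and was a DEG where the log2FC was also above 0.5 in size. The standard error is the size of the log2FC divided by the square root of F. Deviations used log2 of normalized counts with 0.5 added. Total counts were 3044096 to 4861009, and errors come from the spread between replicate cultures, which over all genes was larger than that of counting. The labels number the cultures of a strain but do not say how separate they were. The test was tested on simulated data. Alternatives were DESeq2 1.42.0, other size factors, no filter, only the groups compared, a replicate block and leaving out each culture. Because the 3 groups share 1 model, leaving out a culture of the third group could also change the calls of a comparison.

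The members and gene lists were chosen with earlier results of these data known. Genes named in full were RPN4, the catalytic PRE3, PUP1 and PRE2, the 3 highest and 3 lowest log2FC of each comparison, and members past the threshold. Those of other lists past it were also named, some without their values. RPN11 was also given, since 1 culture stood apart. Promoter letters were searched in the RefSeq genome.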

Additional observations from a re-analysis of the deposited data

Results flagged for a closer look

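RPN11, which encodes the deubiquitinating subunit of the lid, had 385.5 normalized CPM in SUP35 stage 3 replicate 4, farther from the other 3 cultures of that group (279.7 to 291.3) than Dixon's test allows. Of 34 members examined in this group of 4 cultures, 1 was marked in this way, and chance marks about 1 in 20. In the same culture 30 of the 33 proteasome genes lay above their group mean.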

How the results depend on the processing

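With the limit of 0.5 on the size of the log2FC, the members that rose and fell numbered 0 and 2 in sup35-218 against SUP35 stage 3, 1 and 0 in sup35-218 stage 3 against stage 1, and 1 and 0 in SUP35 stage 3 against stage 1. RPN4 passed the threshold between the stage 3 groups with upper quartile scaling (log2FC 0.40, edgeR adjusted p = 0.0369) and with DESeq2 (0.37, adjusted p = 0.0439). In sup35-218 stage 3 against stage 1, 10 members rose with upper quartile scaling and 7 with the replicate block. Upper quartile scaling moved the median log2FC of all genes to 0.10, from 0.04 with TMM. No background from all genes is given for either setting, so whether these counts exceed it is not known. The replicate numbers were not taken as pairs in the main fit. The correlations of same-numbered deviations were 0.03 to 0.16, -0.22 to 0.00 and -0.16 to 0.40 in the comparisons in the order above. Those of differently numbered deviations were -0.19 to 0.09, -0.16 to 0.17 and -0.41 to 0.32. These ranges overlap, those of the same numbers were all positive only in the first comparison, and pairing was not tested. The block gave PUP1 a log2FC of 0.0081 in place of -0.07 between the stage 3 groups, and leaving out 1 culture gave -0.10 to 0.024. When each culture was left out, the members that rose were 1 to 3, 2 to 10 and 3 to 15 in that order of comparisons, those that fell 3 to 5, 1 to 1 and 0 to 1, and all genes called 1749 to 2383, 2188 to 2899 and 842 to 1603. The fewest genes were called in SUP35 stage 3 against stage 1 without stage 1 replicate 2. The log2FC of RPN4 was then 0.24 to 0.50, 0.72 to 0.97 and 0.37 to 0.54, and the median of the 33 genes -0.10 to 0.00, 0.10 to 0.21 and 0.18 to 0.30. The cause of these changes was not tested. RPN2 and BLM10 between the stage 3 groups, RPN10, BLM10 and RPN4 in sup35-218 stage 3 against stage 1, and PUP3, PRE2 and RPN10 in SUP35 stage 3 against stage 1 were called in all 16 settings.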
